A study of Mus musculus with 6 samples.

Results

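The genes described here are 35 mouse genes of cholesterol synthesis, of its control by SREBP2, and of cholesterol uptake, transport, storage and efflux. They were chosen by name from the known pathway, from the mevalonate steps to the LXR receptors and the efflux transporters. Earlier results of these data were known when the list was made, so its counts are descriptions. The genes were found in the count tables by Entrez gene ID, 35 of 36528 gene IDs in all. All 35 had enough reads to be tested. They were measured by RNA sequencing of 6 libraries from mouse bone marrow HOXB-8 cells, immature myeloid cells held in division by the homeobox factor HOXB8, which the notes on RNA extraction name iMACs. The 3 libraries labelled IRF2_KO came from cells given a guide RNA against Irf2 (named gRNA2), a gene for one of the transcription factors that regulate interferon responses. The 3 libraries labelled Parental came from cells with a control guide, Luc. All 6 libraries share the HOXB-8 background, and the labels do not say how many clones or cultures stand behind a group. The p-values therefore reflect no more than how far these libraries differ among themselves, which could be technical variation.

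Cholesterol is built from acetyl-CoA through mevalonate, farnesyl diphosphate, squalene and lanosterol. The transcription factor SREBP2 switches the pathway on when sterol in the endoplasmic reticulum is low: its escort SCAP carries it to the Golgi, where a pair of proteases cut it loose, while INSIG proteins hold SCAP back when sterol is plentiful. Sterol in excess is esterified for storage, and oxidised sterols activate the LXR receptors, which raise the ABC transporters that carry cholesterol out of the cell. Macrophages rely on this balance because they take up lipoproteins and the membranes of dead cells.

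The total count lay between 29070160 and 34051219 per IRF2_KO library and between 33422590 and 39925038 per Parental library, so that 3 reads stand for 0.0751 to 0.103 CPM. CPM is a read count divided by the TMM-adjusted size of its library. Irf2 itself had 40.3, 37.0 and 40.1 CPM in the IRF2_KO libraries, against 41.1, 42.4 and 41.1 CPM in the Parental libraries, which was not called (log2 fold change -0.08 ± 0.05 SE, edgeR adjusted p = 0.209). Cutting by a guide may damage the reading frame and leave the transcript level as it is, so this level checks neither label. Markers of the cell state differed between the groups. The counts of called markers stand beside 23.6% of all tested genes called higher and 23.6% called lower. Of 12 macrophage markers 8 were tested, and 7 were called higher and 0 lower. The 12 had a summed level of 1186 to 1217 CPM in IRF2_KO and 496 to 507 CPM in Parental. C1qb was at 0 in all 6 libraries, and C1qa, C1qc and Marco reached at most 0.0349 CPM. Of 5 myeloid progenitor markers 3 were called lower, Kit, Flt3 and Myb, with a summed level of 604 to 639 CPM in IRF2_KO and 795 to 798 CPM in Parental; Hoxb8 was not called and Cd34 was at or near 0. Of 5 granule genes of promyelocytes 2 were lower and 1 higher, with sums of 10382 to 11915 CPM in IRF2_KO and 12439 to 13445 CPM in Parental. Markers of B cells, T cells, erythroid cells, megakaryocytes and fibroblasts each summed to at most 1.10 CPM in any library, and 3 markers of mast cells and basophils to 12.4 to 13.1 CPM in IRF2_KO and 13.2 to 13.8 CPM in Parental (2 were tested and 0 called).

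Promoter sequence is shown for 6 of the genes, picked by name and not by a rule. All 6 were called lower in IRF2_KO, Insig1 is not an enzyme of synthesis, and genes with many of the searched letters are among them. They do not stand for the other genes, and whether the letters bear on the changes was not tested. Windows of 300 bases, from 250 before to 50 after each annotated start, came from RefSeq (GRCm38.p6) and were held for 29 of the 35 genes; those not in the table are Fdps, Fdft1, Sqle, Stard4, Npc1 and Abcg1. Capitals mark 3 kinds of letters, searched on both strands: TCACNCCAC, a sterol regulatory element; CCAAT, which reads ATTGG on the opposite strand, the core bound by NF-Y, a factor known to work beside SREBP2; and a pair of GAAA with a gap of 2 bases, a core bound by IRF proteins. Hmgcs1 is at chr13:119690101-119690400 (plus strand), Mvk at chr5:114444019-114444318 (plus strand), Msmo1 at chr8:64733529-64733828 (minus strand), Lss at chr10:76531355-76531654 (plus strand), Insig1 at chr5:28071162-28071461 (plus strand) and Ebp at chrX:8193463-8193762 (minus strand), each printed 5′ to 3′ in the direction of the gene.
Hmgcs1: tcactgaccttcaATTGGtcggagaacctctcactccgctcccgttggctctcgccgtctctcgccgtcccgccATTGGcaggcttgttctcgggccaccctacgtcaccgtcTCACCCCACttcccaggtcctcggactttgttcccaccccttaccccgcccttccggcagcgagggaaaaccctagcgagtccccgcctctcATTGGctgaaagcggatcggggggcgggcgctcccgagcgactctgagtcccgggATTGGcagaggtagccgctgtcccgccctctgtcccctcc
Mvk: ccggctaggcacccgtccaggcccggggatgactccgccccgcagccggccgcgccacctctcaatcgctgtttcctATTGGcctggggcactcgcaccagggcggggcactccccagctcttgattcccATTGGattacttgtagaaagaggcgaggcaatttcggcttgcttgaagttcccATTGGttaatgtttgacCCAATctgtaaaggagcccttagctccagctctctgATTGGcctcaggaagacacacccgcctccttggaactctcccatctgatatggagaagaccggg
Msmo1: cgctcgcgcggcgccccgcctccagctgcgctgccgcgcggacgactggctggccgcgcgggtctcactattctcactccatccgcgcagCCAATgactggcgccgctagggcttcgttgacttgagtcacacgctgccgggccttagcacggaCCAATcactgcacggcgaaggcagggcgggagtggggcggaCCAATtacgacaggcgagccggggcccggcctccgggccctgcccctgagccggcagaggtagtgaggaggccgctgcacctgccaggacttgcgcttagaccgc
Lss: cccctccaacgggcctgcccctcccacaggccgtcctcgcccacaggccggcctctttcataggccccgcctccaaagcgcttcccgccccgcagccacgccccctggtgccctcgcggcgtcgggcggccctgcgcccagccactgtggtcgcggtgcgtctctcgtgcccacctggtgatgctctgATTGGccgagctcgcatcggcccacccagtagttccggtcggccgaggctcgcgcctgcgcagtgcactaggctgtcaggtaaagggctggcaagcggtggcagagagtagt
Insig1: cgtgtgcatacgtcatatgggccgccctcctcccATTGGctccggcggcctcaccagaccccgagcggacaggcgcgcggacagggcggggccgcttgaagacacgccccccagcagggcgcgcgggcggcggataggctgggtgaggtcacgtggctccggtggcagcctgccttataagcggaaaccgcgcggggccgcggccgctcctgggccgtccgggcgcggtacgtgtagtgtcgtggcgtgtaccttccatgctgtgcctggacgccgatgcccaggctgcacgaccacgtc
Ebp: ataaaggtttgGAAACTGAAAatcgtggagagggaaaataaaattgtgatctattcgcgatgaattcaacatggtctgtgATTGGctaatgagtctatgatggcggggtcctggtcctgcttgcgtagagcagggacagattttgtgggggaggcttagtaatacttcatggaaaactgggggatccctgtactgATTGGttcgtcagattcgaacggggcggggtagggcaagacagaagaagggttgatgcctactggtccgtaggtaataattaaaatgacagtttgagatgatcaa

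Hmgcs1 was the 1 member of 29 (3.45%) whose window held TCACNCCAC, in the form TCACCCCAC starting 137 bases before the start, against 1.44% of the 9884 tested genes with a window. CCAAT was found in 22 of 29 members (75.9%), against 42.8% of those tested genes. It was found for 16 of the 18 members with a window that were called lower in IRF2_KO and for 6 of the 11 others. Mvk held 5 copies, Hmgcs1 4 and Msmo1 3, and 14 members held at least 2. The letters GGGCGG, a core read by Sp1 and not capitalised above, were in 24 of 29 (82.8%), against 66.8% of the tested genes. They split in a similar way, with 17 of the 18 members called lower and 7 of the 11 others. The IRF letters were in 2 of 29 (6.90%), Ebp and Ggps1, against 3.81%; Ebp was called lower and Ggps1 was not called. No pair of hits of different letters shared a base. A match is a description of the letters only. Genes with several annotated starts had a window for each, and a gene was counted if any of its windows held the letters.

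Transcripts of cholesterol synthesis were lower in IRF2_KO for 17 of 20 enzymes. Of the other 15 genes 3 were lower, 4 higher and 8 not called, a share of higher genes near that of all tested genes. The 4 were Soat1 (storage), Npc2 (lysosomal export), Abcg1 (efflux) and Nr1h2 (LXR beta), while Npc1 and Abca1 were not called. Of the 35 genes, 20 were called lower and 5 higher by edgeR at an adjusted p under 0.05, and 10 were not called; over all 13353 tested genes 23.6% were called lower and 23.6% higher. All 3 IRF2_KO libraries lay below all 3 Parental libraries for 21 members, against 27.6% of all tested genes, and above them for 5, against 26.4%. The median log2 fold change of the 35 was -0.20, and 28 were negative; over all tested genes the median was -0.01. The changes were small: 12 of the 35 (34.3%) were at least 25% above or 20% below Parental, against 29.1% of tested genes, 2 differed by 1.5-fold or more, against 13.7%, and 0 by 2-fold or more, against 7.15%. Libraries of a group lay close together, with a median coefficient of variation over members of 4.42% in IRF2_KO and 3.37% in Parental. In bulk RNA, fewer cells of a type and less RNA per cell cannot be told apart.

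**Figure D1:**
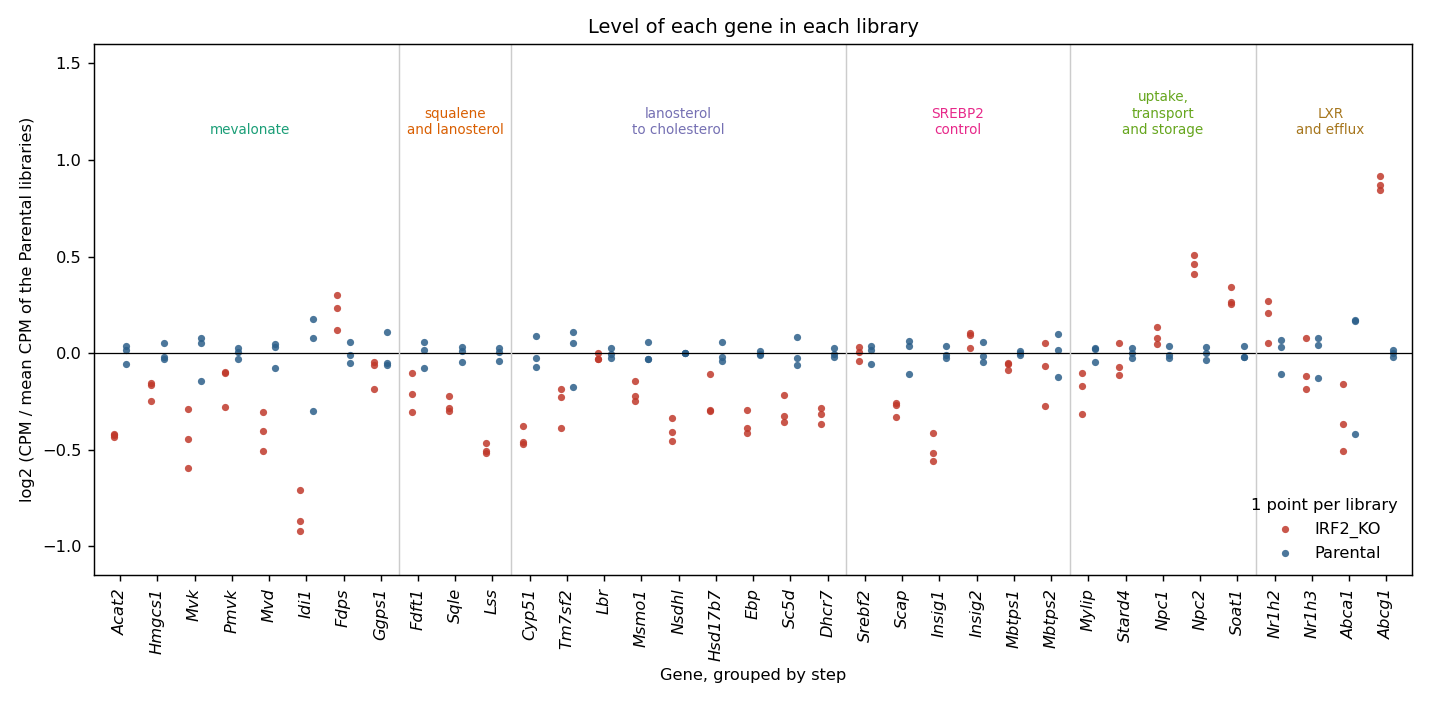
Each point is 1 library, plotted as the log2 ratio of its CPM to the mean of the Parental libraries (y axis) for each of the 35 genes (x axis, grouped by step), with IRF2_KO left of Parental. For 21 genes all IRF2_KO points lie below all Parental points and for 5 they lie above; Abca1 and Idi1 have the widest scatter among Parental libraries.

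Of the 20 genes called lower, 17 are enzymes of synthesis. Of all 20 enzymes 17 were lower, 1 was higher and 2 were not called, with a median log2 fold change of -0.28. Their CPM summed to 1917, 1925 and 1909 in the IRF2_KO libraries, against 2261, 2229.6 and 2253 in the Parental libraries, so that the IRF2_KO mean was 0.85 times the Parental mean. The sums did not overlap, and the SD within a group was under 1% of its mean. The other 15 genes had 3 lower, 4 higher and 8 not called, with a median of -0.04. Over all tested genes 23.6% were called lower and 23.6% higher. The macrophage and progenitor markers given above moved between the same groups, and their part in these results was not tested.

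**Figure D2:**
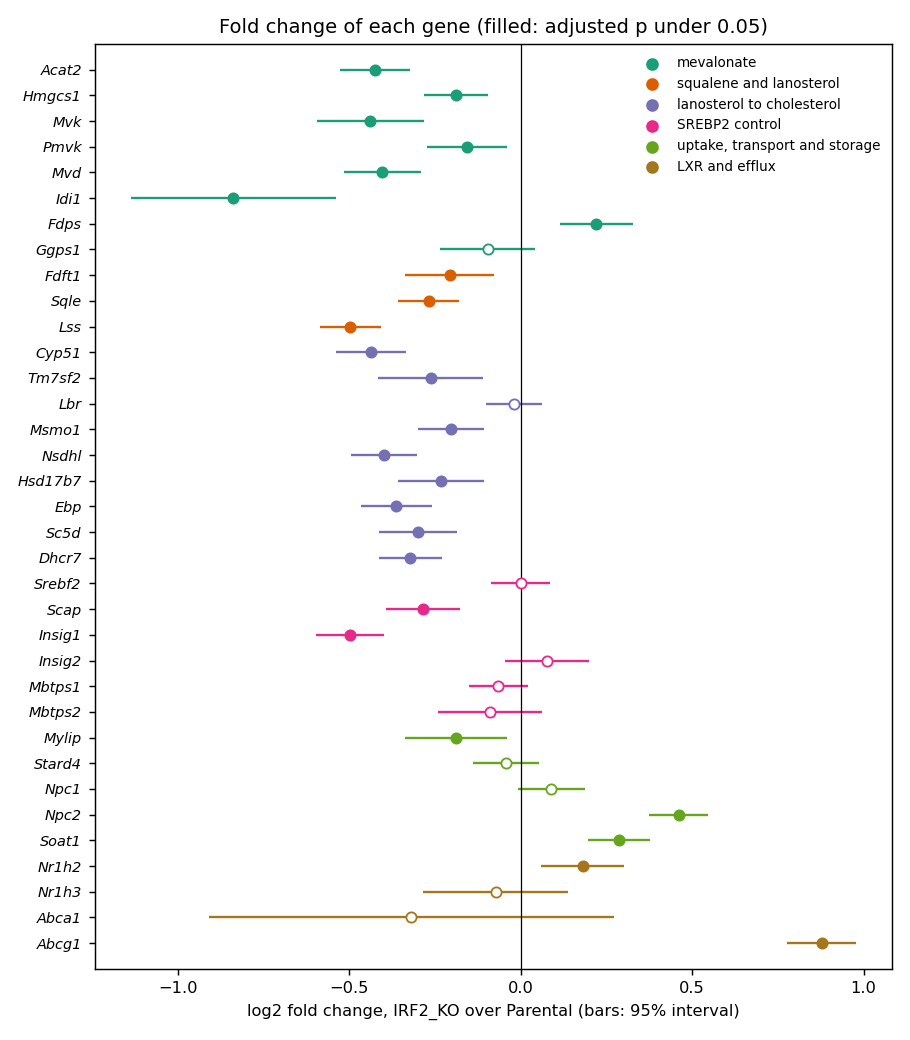
The log2 fold change of IRF2_KO over Parental (x axis) with its 95% interval for each gene (rows, coloured by step), from the edgeR fit; filled points have an adjusted p under 0.05. Enzymes from Acat2 to Dhcr7 lie left of 0 except Fdps at 0.22, and Abcg1 at 0.88 lies farthest to the right.

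Of the 8 mevalonate genes, 6 were lower, Fdps was higher and Ggps1 was not called, against 23.6% lower over all tested genes. Acat2, the thiolase that joins acetyl-CoA units at the head of the pathway, had 47.9, 47.8 and 47.4 CPM in the IRF2_KO libraries, against 64.7, 65.8 and 61.6 CPM in the Parental libraries. All IRF2_KO values lay within 1 CPM of each other and well below Parental (log2 fold change -0.42 ± 0.05 (SE), edgeR adjusted p = 1.07e-06). Hmgcs1, HMG-CoA synthase, had 154, 144 and 152 CPM in the IRF2_KO libraries, against 177, 168 and 168 CPM in the Parental libraries, a smaller but separate shift (log2 fold change -0.19 ± 0.04 (SE), edgeR adjusted p = 0.00186). Mevalonate kinase, Mvk, had 28.7, 35.5 and 31.8 CPM in the IRF2_KO libraries, against 39.2, 45.0 and 45.8 CPM in the Parental libraries (log2 fold change -0.44 ± 0.07 (SE), edgeR adjusted p = 9.75e-05). The highest IRF2_KO value was more than 3 CPM below the lowest Parental value. The decarboxylase Mvd had 97.1, 112 and 104 CPM in the IRF2_KO libraries, against 131, 141 and 142 CPM in the Parental libraries (log2 fold change -0.40 ± 0.05 (SE), edgeR adjusted p = 6.94e-06). Phosphomevalonate kinase, Pmvk, which works between those enzymes, had 43.7, 49.4 and 49.6 CPM in the IRF2_KO libraries, against 51.9, 53.2 and 54.0 CPM in the Parental libraries (log2 fold change -0.16 ± 0.06 (SE), edgeR adjusted p = 0.0268). Its groups did not overlap, but its call was the weakest of the enzymes: without IRF2_KO replicate 1 it was lost (log2 fold change -0.09, adjusted p = 0.176), as it was without Parental replicate 2 (log2 fold change -0.16, adjusted p = 0.0716), without Parental replicate 3 (log2 fold change -0.14, adjusted p = 0.0873) and in DESeq2 (log2 fold change -0.15, adjusted p = 0.0520).

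Idi1, the isomerase that makes dimethylallyl diphosphate (chr13:8885606-8892396 on GRCm38), fell furthest. It had 2.59, 3.00 and 2.68 CPM in the IRF2_KO libraries, against 5.53, 3.98 and 5.17 CPM in the Parental libraries, that is 77, 86 and 90 reads against 219, 134 and 208 reads. All IRF2_KO values lay below the lowest Parental value, and the Parental values were the more scattered (log2 fold change -0.84 ± 0.14 (SE), edgeR adjusted p = 9.65e-05; a fold of 0.559, 95% interval 0.455 to 0.688). Of all stretches of 50 bases (words) in its transcripts, 25.3% also occur in transcripts of other genes, among them the processed pseudogenes Gm13502 and Gm35570, and reads that align to several places were left out by the authors, so its level is uncertain. Fdps, which makes farnesyl diphosphate for sterols, dolichol and prenyl groups alike (chr3:89093588-89101967), was the 1 enzyme that rose. It had 141, 160.1 and 153 CPM in the IRF2_KO libraries, against 125, 129 and 135 CPM in the Parental libraries (log2 fold change 0.22 ± 0.05 (SE), edgeR adjusted p = 0.00154). Every IRF2_KO value was above every Parental value, though by little between the closest pair. Of its words 26.2% recur elsewhere, in Gm43738 and processed pseudogenes such as Gm3571, so this level is uncertain too. Ggps1, which makes geranylgeranyl diphosphate on a branch away from sterols, had 24.9, 22.7 and 24.7 CPM in IRF2_KO and 27.8, 24.9 and 24.7 CPM in Parental. Its groups overlapped, and the 95% interval of its log2 fold change was -0.24 to 0.04 (edgeR adjusted p = 0.247).

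All 3 genes that lead to lanosterol were lower, against 23.6% of all tested genes. Fdft1, squalene synthase, commits farnesyl diphosphate to sterols and had 29.5, 33.9 and 31.5 CPM in the IRF2_KO libraries, against 36.9, 34.6 and 38.0 CPM in the Parental libraries. The groups came within 1 CPM of each other (log2 fold change -0.21 ± 0.06 (SE), edgeR adjusted p = 0.0102), and without Parental replicate 3 the call was lost (log2 fold change -0.18, adjusted p = 0.0540). Sqle, squalene epoxidase, is a known control point of the pathway and had 213, 202 and 205 CPM in the IRF2_KO libraries, against 251, 241 and 254 CPM in the Parental libraries (log2 fold change -0.27 ± 0.04 (SE), edgeR adjusted p = 4.23e-05). Lss, lanosterol synthase (chr10:76531565-76557139), closes the sterol rings and fell by 29.1%. It had 136, 139.9 and 135 CPM in the IRF2_KO libraries, against 188, 197 and 194 CPM in the Parental libraries. Values within each group were close, and the gap between groups was many times their spread (log2 fold change -0.50 ± 0.04 (SE), edgeR adjusted p = 2.61e-08). The 3 genes together summed to 379, 376 and 371 CPM in the IRF2_KO libraries, against 476, 473 and 487 CPM in the Parental libraries.

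Of the 50-base words of Fdft1, 26.5% recur in other genes, chiefly in Ctsb and in the processed pseudogene Gm6781. Ctsb encodes the lysosomal protease cathepsin B, and its span overlaps that of Fdft1. Words shared there come from the same place in the genome, and which gene such reads were assigned to was not checked. Ctsb moved the other way, with 583 ± 10.5 CPM in IRF2_KO and 389.8 ± 14.3 CPM in Parental (log2 fold change 0.58 ± 0.04 SE, edgeR adjusted p = 2.32e-09). Whether reads were counted by strand is not given in the sources used here. Acat2 shares 39.1% of its words with other genes, chiefly with its paralog Acat3. Acat3 had 121 ± 3.86 CPM in IRF2_KO and 124 ± 2.83 CPM in Parental (log2 fold change -0.04 ± 0.04 SE, edgeR adjusted p = 0.511) and was not called. In all, 20 members shared under 1% of their words with other genes, 10 shared 1% to under 20%, and 5 shared 20% or more: Acat2, Mbtps2, Fdft1, Fdps and Idi1.

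Of the 9 genes that turn lanosterol into cholesterol, 8 were lower and Lbr was not called, against 23.6% lower over all tested genes. Cyp51, the demethylase that acts first, had 124, 117 and 117 CPM in the IRF2_KO libraries, against 172, 154 and 159 CPM in the Parental libraries (log2 fold change -0.44 ± 0.05 (SE), edgeR adjusted p = 1.00e-06). Nsdhl, which takes part in removing the methyl groups, had 74.4, 77.0 and 80.7 CPM in the IRF2_KO libraries, against 102, 102 and 102 CPM in the Parental libraries (log2 fold change -0.40 ± 0.05 (SE), edgeR adjusted p = 1.32e-06). Its Parental values were almost the same in all 3 libraries. Ebp, the sterol isomerase, had 46.5, 50.4 and 47.2 CPM in the IRF2_KO libraries, against 61.3, 62.4 and 61.7 CPM in the Parental libraries, groups that lay far apart (log2 fold change -0.36 ± 0.05 (SE), edgeR adjusted p = 8.97e-06). Dhcr7, the reductase that ends one of the routes to cholesterol, had 97.7, 99.7 and 94.1 CPM in the IRF2_KO libraries, against 119.9, 121 and 123 CPM in the Parental libraries (log2 fold change -0.32 ± 0.04 (SE), edgeR adjusted p = 9.80e-06). Sc5d, the desaturase just before it, had 53.9, 50.1 and 49.0 CPM in IRF2_KO and 66.3, 60.1 and 61.6 CPM in Parental (log2 fold change -0.30 ± 0.05 (SE), edgeR adjusted p = 0.000188). These 5 genes fell by 18.7% to 26.1%.

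The other called genes of this stretch changed less. Msmo1, the methylsterol oxidase, had 149, 139 and 142 CPM in the IRF2_KO libraries, against 172, 162 and 161 CPM in the Parental libraries (log2 fold change -0.20 ± 0.05 (SE), edgeR adjusted p = 0.00122). Hsd17b7, a ketoreductase of the same demethylation, had 43.5, 38.2 and 38.1 CPM in IRF2_KO and 48.9, 45.5 and 46.2 CPM in Parental (log2 fold change -0.23 ± 0.06 (SE), edgeR adjusted p = 0.00349). Both had groups that did not overlap. Tm7sf2 and Lbr encode reductases that can carry out the same sterol step, and Lbr is also a receptor for lamins in the inner nuclear membrane. Tm7sf2 had 31.8, 36.7 and 35.6 CPM in the IRF2_KO libraries, against 36.8, 43.2 and 44.9 CPM in the Parental libraries; the groups met within a fraction of 1 CPM but did not overlap (log2 fold change -0.26 ± 0.07 (SE), edgeR adjusted p = 0.00617). Lbr had 377, 368 and 369 CPM in the IRF2_KO libraries, against 383, 375 and 369.8 CPM in the Parental libraries. Its groups overlapped, its log2 fold change had a 95% interval of -0.10 to 0.06 (edgeR adjusted p = 0.722), and it was the most abundant enzyme transcript per length in Parental.

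Levels can be compared between genes only per length, for which the authors' size-factor-adjusted RPKM was used, given as mean ± SD of 3 libraries. Among the 20 enzymes, Lbr had 96.3 ± 0.848 RPKM in IRF2_KO and 97.1 ± 1.96 RPKM in Parental. Fdps had 101 ± 6.81 RPKM in IRF2_KO and 86.4 ± 3.20 RPKM in Parental. Sqle had 73.5 ± 1.76 RPKM in IRF2_KO and 88.0 ± 2.38 RPKM in Parental, and Msmo1 had 76.7 ± 2.56 RPKM in IRF2_KO and 87.9 ± 3.32 RPKM in Parental. In Parental, Sqle, Msmo1 and Fdps lay within each other's range, at ranks 3, 4 and 5 of the 35 genes, and cannot be ordered. In IRF2_KO, Fdps stood at rank 2 and above the ranges of Sqle and Msmo1, with a range that overlapped that of Lbr. Mvd followed, with 54.7 ± 4.07 RPKM in IRF2_KO and 72.0 ± 3.19 RPKM in Parental. At the other end, Idi1 was the lowest enzyme, with 0.939 ± 0.0786 RPKM in IRF2_KO and 1.66 ± 0.278 RPKM in Parental, and Ggps1 the next lowest, with 4.33 ± 0.205 RPKM in IRF2_KO and 4.60 ± 0.320 RPKM in Parental. Idi1 shares 25.3% of its words with other genes and Fdps 26.2%, and only uniquely aligned reads were counted. Their levels may be read too low, and their ranks are uncertain.

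**Figure D3:**
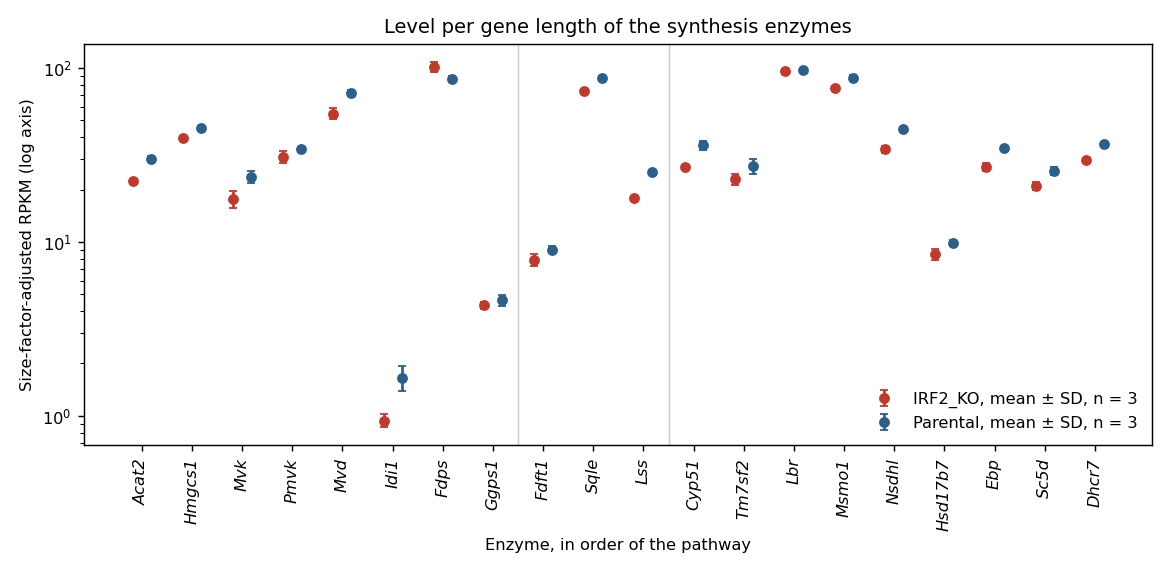
The size-factor-adjusted RPKM (y axis, log scale) of the 20 synthesis enzymes in order of the pathway (x axis), as mean ± SD of 3 libraries, with IRF2_KO left of Parental. Levels span from about 1 RPKM for Idi1 to about 100 RPKM for Lbr and Fdps, and Fdps is the 1 enzyme whose IRF2_KO mean lies above its Parental mean. The levels of Idi1 and Fdps are uncertain because of sequence shared with other genes.

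Of the 6 genes that control SREBP2, 2 were lower and 4 were not called, against 23.6% lower over all tested genes. Srebf2, which encodes SREBP2 itself, had 457, 481 and 471 CPM in the IRF2_KO libraries, against 452, 476 and 481 CPM in the Parental libraries. The groups overlapped and the fold lay between 0.942 and 1.06 at 95% (edgeR adjusted p = 0.9998); the sign of so small a value differed between settings. Cutting of the protein, the step that activates it, was not measured. Scap, the escort, had 80.6, 84.6 and 84.2 CPM in the IRF2_KO libraries, against 94.1, 104 and 106 CPM in the Parental libraries, with all IRF2_KO values below Parental (log2 fold change -0.28 ± 0.05 (SE), edgeR adjusted p = 0.000169). Insig1 (chr5:28071412-28078662), a retention factor and itself a known SREBP target, fell by 29.1%. It had 111, 103 and 101 CPM in the IRF2_KO libraries, against 152, 146 and 147 CPM in the Parental libraries. The lowest Parental value was above the highest IRF2_KO value by more than 30 CPM (log2 fold change -0.50 ± 0.05 (SE), edgeR adjusted p = 1.21e-07). Its relative Insig2 had 28.5, 27.2 and 28.7 CPM in IRF2_KO and 25.8, 27.8 and 26.4 CPM in Parental. The groups overlapped, and the 95% interval of the log2 fold change was -0.05 to 0.20 (edgeR adjusted p = 0.298).

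The proteases that release SREBP2 were not called. Mbtps1, the site-1 protease, had 148, 152 and 152 CPM in the IRF2_KO libraries, against 156, 159 and 158 CPM in the Parental libraries. All IRF2_KO values lay below Parental, but the change was -4.41% and the interval of the log2 fold change, -0.15 to 0.02, took in 0 (edgeR adjusted p = 0.205). Mbtps2, the site-2 protease, had 51.6, 41.3 and 47.7 CPM in IRF2_KO and 53.3, 50.5 and 45.8 CPM in Parental, with overlapping groups and an interval of -0.24 to 0.06 (edgeR adjusted p = 0.337). It shares 28.9% of its words with other genes, almost all with Yy2, whose span overlaps its own, so its level is uncertain.

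Among the 5 genes of uptake, transport and storage, 2 were higher, 1 was lower and 2 were not called. The shares over all tested genes were 23.6% higher and 23.6% lower. Npc2, the soluble lysosomal protein that hands cholesterol from digested lipoproteins to NPC1 (chr12:84754559-84773112), had 460.1, 492 and 477 CPM in the IRF2_KO libraries, against 338, 347 and 354 CPM in the Parental libraries. The groups were separated by over 100 CPM (log2 fold change 0.46 ± 0.04 (SE), edgeR adjusted p = 5.47e-08). Per length it was the most abundant of the 35 genes in both groups, with 143 ± 5.56 RPKM in IRF2_KO and 103 ± 2.11 RPKM in Parental. Npc1, the membrane protein that receives this cholesterol, had 72.0, 70.6 and 74.9 CPM in the IRF2_KO libraries, against 67.7, 69.9 and 67.0 CPM in the Parental libraries. Its IRF2_KO values were all above Parental, the closest by under 1 CPM, and it was not called (95% interval of the log2 fold change -0.01 to 0.19, edgeR adjusted p = 0.125). Soat1, which esterifies cholesterol for storage (chr1:156428108-156474328), had 181, 171 and 172 CPM in the IRF2_KO libraries, against 147, 141 and 141 CPM in the Parental libraries, again without overlap (log2 fold change 0.29 ± 0.04 (SE), edgeR adjusted p = 2.87e-05).

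Mylip, also known as IDOL, is an LXR target that marks lipoprotein receptors for degradation. It had 16.7, 15.1 and 17.5 CPM in the IRF2_KO libraries, against 18.1, 19.0 and 19.1 CPM in the Parental libraries (log2 fold change -0.19 ± 0.07 (SE), edgeR adjusted p = 0.0355). The call was lost without IRF2_KO replicate 2 (log2 fold change -0.13, adjusted p = 0.151), without Parental replicate 2 (log2 fold change -0.18, adjusted p = 0.0939), without Parental replicate 3 (log2 fold change -0.18, adjusted p = 0.101) and in DESeq2 (log2 fold change -0.19, adjusted p = 0.0893). Stard4, a cytosolic carrier of cholesterol, had 316, 289 and 282 CPM in the IRF2_KO libraries, against 310.0, 304 and 299 CPM in the Parental libraries. IRF2_KO replicate 1 was the highest of all 6 libraries and the other IRF2_KO libraries were the lowest, so the groups overlapped (95% interval -0.14 to 0.05, edgeR adjusted p = 0.473).

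In the group of LXR and efflux genes, 2 of 4 were higher and 2 were not called, against 23.6% higher over all tested genes. Of these, Nr1h2 had overlapping groups and a call that was lost without single libraries, as given below. Abcg1, which exports cholesterol to lipoprotein particles (chr17:31057694-31117984), had the largest rise of the 35. It had 71.3, 72.7 and 75.2 CPM in the IRF2_KO libraries, against 39.2, 40.3 and 39.9 CPM in the Parental libraries. The IRF2_KO values were all well above the Parental values and tight in both groups (log2 fold change 0.88 ± 0.05 (SE), edgeR adjusted p = 5.64e-11; 1.84-fold, 95% interval 1.71 to 1.97). Of all tested genes 8.48% had a larger change in either direction. Abca1, the transporter that loads lipid-poor apolipoprotein, had 0.538, 0.593 and 0.684 CPM in the IRF2_KO libraries, against 0.858, 0.861 and 0.572 CPM in the Parental libraries, or 16, 17 and 23 reads and 34, 29 and 23 reads. The groups overlapped, and at this depth the interval of its log2 fold change ran from -0.91 to 0.27 (edgeR adjusted p = 0.374). It was the lowest of the 35 genes per length, with 0.0561 ± 0.00694 RPKM in IRF2_KO and 0.0705 ± 0.0154 RPKM in Parental.

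Nr1h2, which encodes LXR beta, had 135, 158 and 151 CPM in the IRF2_KO libraries, against 121, 137 and 134 CPM in the Parental libraries. It was called higher although its groups overlapped (log2 fold change 0.18 ± 0.06 (SE), edgeR adjusted p = 0.0156), and the call was lost without IRF2_KO replicate 2 (log2 fold change 0.13, adjusted p = 0.0526), without IRF2_KO replicate 3 (log2 fold change 0.17, adjusted p = 0.0662) and without Parental replicate 1 (log2 fold change 0.13, adjusted p = 0.0814). Nr1h3, which encodes LXR alpha, had 6.55, 7.88 and 6.87 CPM in IRF2_KO and 6.81, 7.69 and 7.88 CPM in Parental, with overlap and an interval of -0.28 to 0.14 (edgeR adjusted p = 0.580). Nr1h2 was the more abundant receptor per length, with 71.4 ± 5.86 RPKM in IRF2_KO and 62.7 ± 3.87 RPKM in Parental, against 3.22 ± 0.331 RPKM in IRF2_KO and 3.36 ± 0.250 RPKM in Parental for Nr1h3. The rises of Npc2, Soat1 and Abcg1 went with the higher macrophage markers, 1186 to 1217 CPM in IRF2_KO and 496 to 507 CPM in Parental, whose part was not tested.

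**Figure D4:**
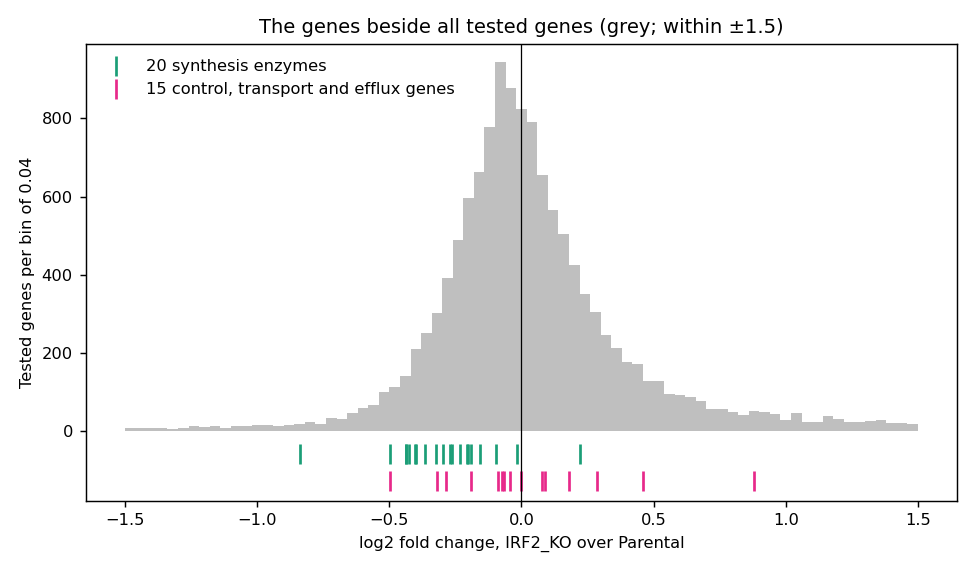
The grey histogram counts tested genes by log2 fold change of IRF2_KO over Parental (x axis, bins of 0.04, y axis in genes; 494 genes beyond 1.5 on either side are not drawn), and ticks below mark the 20 enzymes and the 15 other genes. Enzyme ticks lie left of 0 in 19 of 20 cases, and the ticks of the other 15 genes lie on both sides, with a median of -0.04.

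Genes next to the pathway were read from lists of their own, whose counts stand beside 23.6% of all tested genes called lower and 23.6% called higher. Of 9 genes for degradation of sterol-regulated proteins in the endoplasmic reticulum, 5 were lower, 0 higher and 4 not called (median log2 fold change -0.13). Rnf145, a ubiquitin ligase with a sterol-sensing domain, had 82.2 ± 1.72 CPM in IRF2_KO, against 105 ± 2.11 CPM in Parental (log2 fold change -0.35 ± 0.04 (SE), edgeR adjusted p = 4.25e-06). Rnf139, another such ligase, had 56.4 ± 2.87 CPM in IRF2_KO, against 69.9 ± 4.75 CPM in Parental (log2 fold change -0.31 ± 0.06 (SE), edgeR adjusted p = 0.000182). Each ± after a mean CPM is an SD over the 3 libraries of its group. The named genes of each list are among those with the smallest adjusted p and groups that do not overlap.

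Of 14 genes that use isoprenoids for ubiquinone, dolichol and protein prenylation, 7 were lower, 1 was higher and 6 were not called (median -0.14). Dolk, dolichol kinase, had 18.8 ± 0.278 CPM in IRF2_KO, against 25.5 ± 0.753 CPM in Parental (log2 fold change -0.44 ± 0.06 (SE), edgeR adjusted p = 1.04e-05). Zmpste24, which trims farnesylated prelamin A, had 119 ± 4.91 CPM in IRF2_KO, against 144 ± 5.26 CPM in Parental (log2 fold change -0.28 ± 0.05 (SE), edgeR adjusted p = 8.90e-05). Pdss1, a subunit of the enzyme that makes the ubiquinone tail, had 16.8 ± 1.46 CPM in IRF2_KO, against 21.9 ± 0.0920 CPM in Parental (log2 fold change -0.38 ± 0.07 (SE), edgeR adjusted p = 0.000201). The 1 that rose was Rabggtb, a subunit of the Rab geranylgeranyl transferase, with 201 ± 5.11 CPM in IRF2_KO, against 172 ± 3.81 CPM in Parental (log2 fold change 0.23 ± 0.04 (SE), edgeR adjusted p = 0.000215).

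In the lists of sterol handling more genes were higher than lower. Of 19 genes of intracellular sterol transport and hydrolysis, 10 were higher, 3 lower and 6 not called (median 0.14). Lima1, an actin-binding protein, had 61.2 ± 1.33 CPM in IRF2_KO, against 31.7 ± 0.628 CPM in Parental (log2 fold change 0.95 ± 0.05 (SE), edgeR adjusted p = 3.46e-11). Osbpl3, an oxysterol-binding protein relative, had 92.1 ± 1.501 CPM in IRF2_KO, against 51.0 ± 0.506 CPM in Parental (log2 fold change 0.85 ± 0.04 (SE), edgeR adjusted p = 3.52e-11), and Plin2, which coats lipid droplets, had 408 ± 17.1 CPM in IRF2_KO, against 233 ± 11.1 CPM in Parental (log2 fold change 0.81 ± 0.05 (SE), edgeR adjusted p = 1.16e-10). The largest change in this list was a fall, in Osbpl5, another relative of the oxysterol-binding protein, named after its values were seen. It had 0.269, 0.314 and 0.594 CPM in the IRF2_KO libraries, against 1.14, 1.01 and 0.870 CPM in the Parental libraries (log2 fold change -1.32 ± 0.31 (SE), edgeR adjusted p = 0.00186). These levels are low, so the size of the fall of Osbpl5 is uncertain. Of 10 lipoprotein and scavenger receptors and their partners, 7 were higher, 0 lower and 3 not called (median 0.46). Cd36, which takes up fatty acids and oxidised lipoprotein, had 15.2 ± 1.02 CPM in IRF2_KO, against 4.45 ± 0.294 CPM in Parental (log2 fold change 1.77 ± 0.09 (SE), edgeR adjusted p = 3.00e-11). Olr1, a receptor for oxidised lipoprotein, had 128 ± 6.996 CPM in IRF2_KO, against 63.1 ± 4.14 CPM in Parental (log2 fold change 1.02 ± 0.05 (SE), edgeR adjusted p = 4.99e-11). Sort1, a sorting receptor, had 932 ± 31.5 CPM in IRF2_KO, against 604 ± 1.999 CPM in Parental (log2 fold change 0.63 ± 0.04 (SE), edgeR adjusted p = 5.50e-10). Scavenger receptors are also known genes of macrophages, and the summed macrophage markers given above moved with them; their part in this result was not tested.

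Of 11 LXR partners, targets and ligand-making enzymes, 9 were tested, and 4 were higher, 1 lower and 4 not called (median -0.07). Rxra, the shared partner of nuclear receptors, had 6.52 ± 0.572 CPM in IRF2_KO, against 3.48 ± 0.514 CPM in Parental (log2 fold change 0.91 ± 0.12 (SE), edgeR adjusted p = 8.62e-06). Pltp, phospholipid transfer protein, had 26.2 ± 1.54 CPM in IRF2_KO, against 15.1 ± 1.05 CPM in Parental (log2 fold change 0.80 ± 0.07 (SE), edgeR adjusted p = 4.93e-08). Smpdl3a, a phosphodiesterase known as an LXR target in human macrophages, had 0.245 ± 0.0768 CPM in IRF2_KO, against 2.50 ± 0.0999 CPM in Parental, the opposite direction (log2 fold change -3.30 ± 0.25 (SE), edgeR adjusted p = 4.72e-09). Its IRF2_KO values were 0.235, 0.174 and 0.327 CPM. In those libraries 3 reads stand for 0.0881 to 0.103 CPM, so the size of its fall is uncertain. Cyp27a1, which makes an oxysterol, was at 0 reads in all 6 libraries, and Ch25h, which makes another, was at 0 in IRF2_KO and at most 0.0297 CPM in Parental, below the level of 3 reads.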

How the data were processed

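Per the labels' protocols, column-purified and DNase-treated RNA went into a stranded kit for total RNA; the molecule label names polyA RNA, and which applies was not settled. Per the submitters' processing notes, the authors used GSNAP and the GRCm38 build; tool versions, gene annotation and any use of strand in counting: not given in the sources used here. Per the file headers, the deposited count of a gene holds its uniquely aligned reads. Genes with close copies lose their shared reads and are read too low. The authors also deposited size-factor-adjusted RPKM, per the file headers, used here only for levels between genes; its ratio to the count was 1 factor per library over 10995 genes.

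Counts of 13353 genes kept by filterByExpr were scaled by TMM (factors 0.987 to 1.02) and compared with edgeR 4.0.16 in R 4.3.3 by the two-sided robust quasi-likelihood F-test. P-values were adjusted over all tested genes by Benjamini and Hochberg, and called under 0.05. The common coefficient of variation fitted by edgeR was 0.0444. edgeR names it biological, but the spread of these libraries could be technical. Standard errors were derived from the log2 fold change and the square root of F. Groups came from the group label; replicates are numbered in record order and pair nothing. The test was first run on simulated data in which few or no genes changed. Far more genes were called here, so that run does not give the rate of false calls in these data. Other settings tried were DESeq2 1.42.0, scaling by RLE, by upper quartile or by library size, limma 3.58.1 (voom), other filters and thresholds, and each library left out in turn.

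The 35 genes and the further lists were chosen with earlier results of these data known, so their counts are descriptions. Every member is named; of each further list, up to 3 called genes with the smallest adjusted p and groups that do not overlap, of which 1 is not reported here; other genes, among them Rabggtb, Osbpl5, Fasn, Scd2 and the sequence partners, were named after their values were seen. Symbols came from a RefSeq table of the same build for 31049 of 36528 IDs. Shared sequence is the share of 50-base words of a gene's GENCODE M21 transcripts that occur in transcripts of other genes, on either strand. It includes genes that overlap at the same place. Coordinates are RefSeq gene spans on GRCm38.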

Additional observations from a re-analysis of the deposited data

How the results depend on the processing

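Of 454 log2 fold changes of the 35 genes under the alternatives, 434 kept their direction and their side of the threshold, 12 kept the direction but lost the call, 8 changed sign and 0 gained a call. The 8 were all of Srebf2, which was not called in any of them and lay near 0: its log2 fold change was 0.00763 with RLE factors, 0.00191 with upper-quartile factors, 0.00400 in DESeq2, 0.000287 in limma-voom, 0.00430 with 1 CPM in 3 libraries, 0.0274 without IRF2_KO replicate 1, and 0.00788 and 0.0172 without Parental replicates 2 and 3. Over the 6 libraries left out in turn it ranged from -0.0283 to 0.0274. The 12 were of Pmvk, Mylip, Nr1h2 and Fdft1, whose log2 fold changes ranged over -0.19 to -0.09, -0.24 to -0.13, 0.13 to 0.25 and -0.26 to -0.15; the cause was not tested. With each library left out in turn, 17 to 20 of the 35 genes were lower and 4 to 5 higher, and 2539 to 3099 of all genes were lower and 2717 to 3158 higher. A further minimum of 25% above or 20% below Parental left 10 of the 35 lower and 2 higher, and 1254 of all genes lower and 1885 higher, since it drops small changes by construction. At an adjusted p under 0.01, 17 of the 35 were lower and 4 higher, and 2299 of all genes lower and 2468 higher. DESeq2 called 18 of the 35 lower and 5 higher, and 2758 of all genes lower and 2898 higher. The median log2 fold change of the enzymes ranged from -0.31 to -0.28 and that of all tested genes from -0.04 to -0.0038 over scalings, filters, tools and left-out libraries. Abca1 had no value under a filter of 1 CPM in 3 libraries. No paired analysis was possible because the labels give no replicate numbers. Depth limits Abca1 and Idi1, which had the fewest reads. Idi1 may also have lost reads that align to several places. Intervals and floors cover counting error and the spread of these libraries only.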

Other observations

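Genes of fatty acid synthesis, which the related factor SREBP1 drives, were read beside the sterol enzymes. Of 13 genes 12 were tested, and 3 were higher, 7 lower and 2 not called (median log2 fold change -0.17), against 23.6% higher and 23.6% lower over all tested genes. Scd1, the desaturase that makes monounsaturated fatty acids, had 70.2, 69.6 and 70.0 CPM in the IRF2_KO libraries, against 644, 632 and 616 CPM in the Parental libraries. All IRF2_KO values were far below Parental (log2 fold change -3.17 ± 0.04 (SE), edgeR adjusted p = 1.65e-19), while Scd2, its paralog, had 4114, 3869 and 3949.6 CPM in IRF2_KO and 4182, 4099 and 4081 CPM in Parental, with overlap (log2 fold change -0.05 ± 0.04 (SE), edgeR adjusted p = 0.319). Fasn, fatty acid synthase, had 715, 706 and 774 CPM in IRF2_KO and 1083, 1276 and 1215 CPM in Parental (log2 fold change -0.70 ± 0.05 (SE), edgeR adjusted p = 8.68e-09). Elovl6, an elongase, had 42.4, 37.2 and 38.0 CPM in the IRF2_KO libraries, against 18.4, 18.8 and 17.95 CPM in the Parental libraries (log2 fold change 1.09 ± 0.06 (SE), edgeR adjusted p = 1.42e-10). Me1, malic enzyme, a source of NADPH, had 2.65, 2.13 and 2.44 CPM in the IRF2_KO libraries, against 0.126, 0.0594 and 0.124 CPM in the Parental libraries (log2 fold change 4.46 ± 0.29 (SE), edgeR adjusted p = 9.23e-10). Both rose without overlap. In Parental, Me1 lay near the level of 3 reads, which was 0.0769, 0.0898 and 0.0751 CPM in those libraries. It was below that level in Parental replicate 2, so the size of its rise is uncertain. Srebf1, which encodes SREBP1, had 355, 378 and 371 CPM in IRF2_KO and 356, 405 and 400.0 CPM in Parental, with overlap (log2 fold change -0.07 ± 0.05 (SE), edgeR adjusted p = 0.253). The changes of Scd1 and Elovl6, and that of Me1 with the limit given, were larger than that of any of the 35 cholesterol genes.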
